A study of Homo sapiens with 8 samples.

Results

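The CDK inhibitors are the small proteins that bind cyclin-dependent kinases and hold them inactive. Probes for 8 of these genes were taken from the arrays by gene name: CDKN1A (p21), CDKN1B (p27), CDKN1C (p57), CDKN2A (p16 and p14ARF), CDKN2B (p15), CDKN2C (p18), CDKN2D (p19) and CDKN3. They are 8 of 43317 gene names and 11 of 58201 probes, each printed as 1 spot, and none of these spots carried an outlier flag on any array. The probes were picked by gene name, but these genes were chosen with earlier results of these data known.

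Expression was measured in 3 human cancer cell lines on 8 Agilent 2-colour arrays, 1 for each condition. PC3 is a prostate cancer line, FaDu a hypopharyngeal squamous cell carcinoma line and PANC-1 a pancreatic cancer line. PC3 cells received miR-99a-3p, or miR-100-3p, or either strand of miR-150 (miR-150-5p or miR-150-3p), and FaDu cells received miR-99a-3p or its partner miR-99a-5p. PANC-1 cells received si-FOXQ1-1 or si-FOXQ1-2, small interfering RNAs against the forkhead gene FOXQ1, and all transfections used the lipid reagent Lipofectamine RNAiMAX. On every array the mock cells, labelled as not transfected, were in Cy3 and the transfected cells in Cy5, so that dye and transfection cannot be told apart. The labels give neither a dose nor a time after transfection, and no array held cells transfected with a control RNA, so that the effect of any transfection is part of each ratio. The results below are log2 ratios of Cy5 over Cy3, in which 1 is a doubling in transfected cells. With 1 array for each condition there is no replicate and no test, and the ± after a ratio is the scanner's error of the spot, a technical error that holds no spread between cultures. A probe was called when it was at least 2-fold higher or lower and well above background in at least 1 channel. In cultures, fewer cells carrying a transcript and less of it in each cell cannot be told apart.

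CDK inhibitors form separate families. The Cip/Kip proteins, encoded by CDKN1A, CDKN1B and CDKN1C, bind cyclin-CDK complexes of several kinds, and CDKN1A is the best known target of p53. The INK4 proteins, encoded by CDKN2A, CDKN2B, CDKN2C and CDKN2D, bind CDK4 and CDK6 and keep them from the D-type cyclins, so that RB stays unphosphorylated and E2F factors stay bound. CDKN2A also encodes p14ARF in another reading frame, a protein that protects p53 from MDM2, and it lies beside CDKN2B in a region of chromosome 9 that many tumours delete. CDKN3 is unlike the others: it is a phosphatase that removes the activating phosphate of CDKs, and its transcript accumulates in dividing cells together with those of mitotic genes.

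The miRNAs of the miR-99 family that were transfected are shown first, since the transfections with miR-99a-3p hold 7 of the 8 calls. miR-99a-3p and miR-99a-5p are the opposite strands of 1 precursor, and miR-100-3p is the corresponding 3′ strand of a related precursor. The sequences below are from RefSeq, 5′ to 3′, with the seed (bases 2 to 8) in capitals. RefSeq entries were matched for 3 of the 5 miRNAs.
miR-99a-3p: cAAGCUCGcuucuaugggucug
miR-100-3p: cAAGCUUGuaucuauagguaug
miR-99a-5p: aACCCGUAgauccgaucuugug
The seeds of miR-99a-3p and miR-100-3p share 6 of 7 bases, and those of miR-99a-3p and miR-99a-5p share 2 of 7. On GRCh38.p14, miR-99a-3p lies at chr21:16539138-16539159 and miR-99a-5p at chr21:16539101-16539122, both on the plus strand, and miR-100-3p at chr11:122152240-122152261 on the minus strand.

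The probes are 60-mers placed on hg19 by the array's annotation. Those shown here, 5′ to 3′, carry the largest difference from mock (CDKN3) and the widest disagreement between probes of a gene (CDKN2A between lines, CDKN1B within an array).
CDKN3 A_23_P48669: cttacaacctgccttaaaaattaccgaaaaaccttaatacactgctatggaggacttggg
CDKN3 A_33_P3307903: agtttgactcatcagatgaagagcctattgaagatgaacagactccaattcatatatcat
CDKN2A A_33_P3411628: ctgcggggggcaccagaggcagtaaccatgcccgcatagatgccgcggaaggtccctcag
CDKN1B A_23_P204696: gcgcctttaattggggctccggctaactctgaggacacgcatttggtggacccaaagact
CDKN3 A_23_P48669 lies at chr14:54878384-54882635 and so bridges an intron, while CDKN3 A_33_P3307903 lies at chr14:54866634-54866693. CDKN2A A_33_P3411628 lies at chr9:21970901-21970960 on the minus strand and CDKN1B A_23_P204696 at chr12:12871119-12871178 on the plus strand. The other CDKN2A probe, A_23_P43490, lies at chr9:21968039-21968098, and the other CDKN1B probe, A_24_P81841, at chr12:12874940-12874999. The array's annotation pairs A_33_P3411628 and A_23_P43490 with the same 4 CDKN2A transcripts, so neither probe separates p16 from p14ARF.

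The marker genes fitted the labels in part. In mock FaDu cells 5 of 5 squamous markers (TP63, KRT5, KRT14, KRT6A and DSG3) were well above background, against 0 of 5 in mock PANC-1, and in mock PC3 only KRT6A was, in 2 of 4 channels. HOXB13, a prostate lineage factor, had a mean mock level of 7.83 in PC3 (log2 over the array's 75th percentile), 1.40 in PANC-1 and -0.47 in FaDu. KLK3, the gene of prostate-specific antigen, was above background in no line, and neither was the pancreatic factor PDX1, while KRT19, KRT7, SOX9 and MUC1 were above background in all 3 lines. FOXQ1, the gene targeted in PANC-1, had a log2 ratio of -2.16 ± 0.29 with si-FOXQ1-1 and -2.12 ± 0.28 with si-FOXQ1-2.

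The first comparison is between the untreated lines. Each mock channel was scaled to its array's 75th percentile, and a probe was called different between a pair of lines when the ranges of their channels did not overlap and their means were at least 2-fold apart. The labels do not say whether the 4 PC3, 2 FaDu and 2 PANC-1 mock channels are separate cultures, so the ranges are a description and no test was run. Of 11 probes, 7 were called between PC3 and FaDu, where 43.6% of all tested probes were, 7 between PC3 and PANC-1, where 35.1% were, and 6 between FaDu and PANC-1, where 40.9% were.

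CDKN1A was the Cip/Kip gene with the widest spread between lines. Its mock level lay between -3.32 and -2.61 in PC3, between 1.19 and 1.23 in FaDu and between -0.63 and -0.39 in PANC-1. The 3 lines did not overlap, and the order was FaDu, PANC-1, PC3. FaDu was 18.0-fold above PC3 and 3.29-fold above PANC-1, and PANC-1 was 5.48-fold above PC3. In PC3 the probe was close to background, and 3 of its 4 mock channels passed. An alternative was normexp, loess and Aquantile normalization in limma, of which the normexp step adds an offset that raises dim signals. With it the log2 difference of PC3 from FaDu shrank from -4.17 to -2.14. That of PC3 from PANC-1 shrank from -2.45 to -0.97, which is no longer called.

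CDKN1B showed the same order at smaller distance. FaDu was 3.32-fold above PC3 by A_23_P204696 and 2.81-fold by A_24_P81841, and PANC-1 lay between them, 1.85-fold and 1.83-fold above PC3. CDKN1C had the opposite order, with PC3 2.40-fold above FaDu and 1.85-fold above PANC-1, and its PC3 channels ranged from 3.97 to 4.29.

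CDKN2A was lowest in PANC-1 by both probes, but the probes placed FaDu differently. By A_23_P43490 the mock level was 6.47 to 6.63 in PC3, 5.30 to 5.31 in FaDu and 0.88 to 1.06 in PANC-1. PC3 was thus 2.32-fold above FaDu and 47.0-fold above PANC-1. By A_33_P3411628 it was 4.35 to 4.49 in PC3 and -0.95 to -0.80 in FaDu, and it was not well above background in either PANC-1 channel. This probe placed PC3 39.2-fold above FaDu and at least 204-fold above PANC-1. FaDu was therefore close to PC3 by one CDKN2A probe and far below it by the other, in both FaDu channels and all 4 PC3 channels.

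CDKN2B, the neighbour of CDKN2A, was likewise not well above background in either PANC-1 channel. PC3 was at least 8.10-fold and FaDu at least 5.10-fold above PANC-1, and PC3 was 1.59-fold above FaDu. With normexp, whose offset raises dim signals, then loess and Aquantile, the log2 difference of PC3 from PANC-1 was 1.57 for CDKN2B. It was 5.74 for CDKN2A A_33_P3411628, and both were still called. The difference of FaDu from PANC-1 was 1.10 and 1.13. Set against the brightest mock signal that was not above background in PANC-1, the bounds of CDKN2B are 5.69-fold for PC3 and 3.59-fold for FaDu, and those of CDKN2A A_33_P3411628 are 143-fold and 3.66-fold. Other genes of this region were measured beside them. CDKN2B-AS1, the antisense RNA of CDKN2B, was above background only in PC3 (4 of 4 mock channels). MTAP, an enzyme of methionine salvage, was above background in every mock channel, at a mean of 1.10 in PC3, 0.69 in FaDu and 1.65 in PANC-1, and KLHL9 at 2.88, 2.94 and 2.33. IFNE was also above background in every mock channel, at -0.69 in PC3, -1.13 in FaDu and -2.27 in PANC-1. DMRTA1 was above background in every mock channel of PC3 (mean -1.07) and PANC-1 (-1.35) but in neither FaDu channel.

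The remaining genes were measured well above background in every mock channel. CDKN2C was low only in FaDu, with levels of 0.51 to 0.59 against 3.62 to 3.77 in PC3 and 3.11 to 3.21 in PANC-1, and PC3 was 8.75-fold and PANC-1 6.11-fold above FaDu. CDKN2D was highest in PC3, 1.86-fold above FaDu and 2.36-fold above PANC-1. CDKN3 was also highest in PC3, 2.95-fold and 3.23-fold above PANC-1 by its 2 probes. By A_33_P3307903 the PC3 and FaDu ranges of CDKN3 overlapped, at 2.63 to 3.26 and 2.60 to 2.69. The PC3 mock channels differed among themselves more for CDKN3 (SD 0.20 and 0.31, n = 4) than for the typical probe (median SD 0.11 over 20423 probes).

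**Figure D1:**
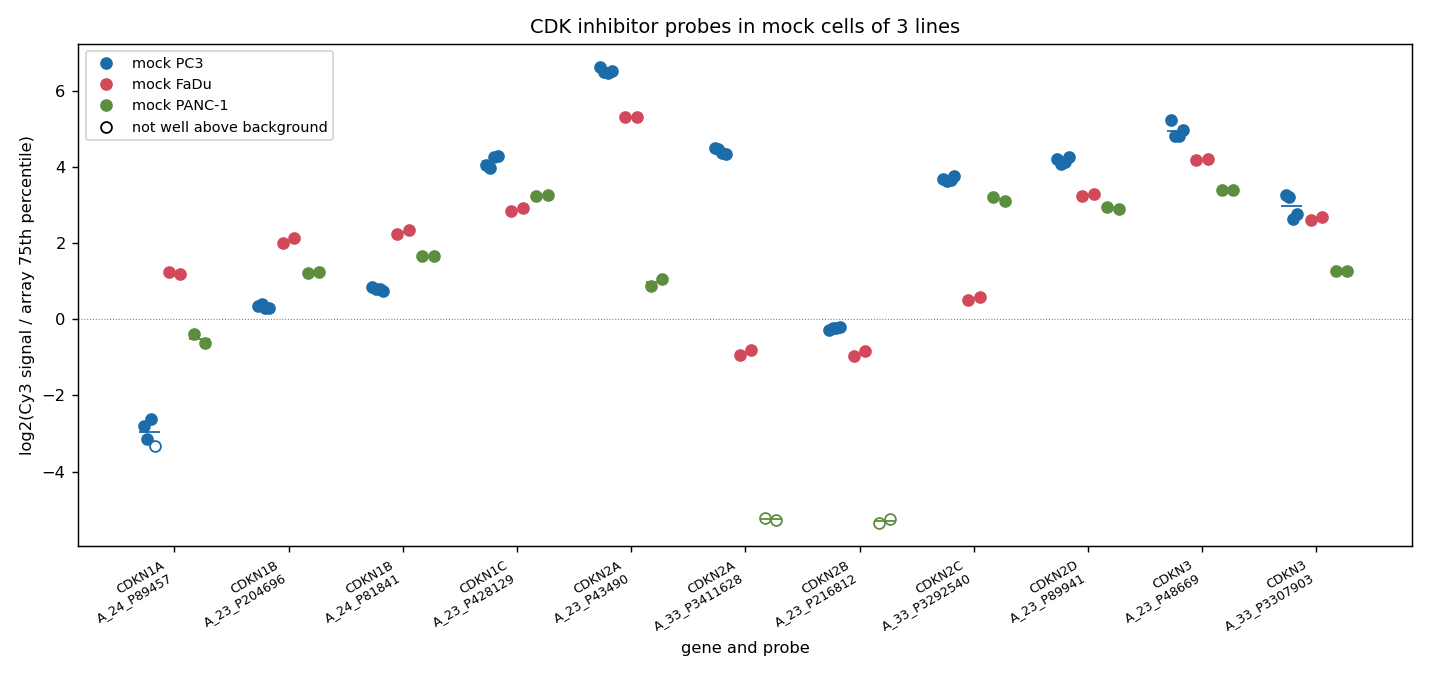
Mock level of every CDK inhibitor probe in 4 PC3, 2 FaDu and 2 PANC-1 Cy3 channels, as log2 of the signal over the array's 75th percentile (y axis) by gene and probe (x axis). Lines mark the means and open points were not well above background. CDKN2A A_33_P3411628 and CDKN2B are open in PANC-1, and FaDu lies near PC3 for CDKN2A A_23_P43490 and far below it for CDKN2A A_33_P3411628.

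The second comparison sets transfected cells against mock cells. Over the 8 arrays there are 88 values, of which 83 were well above background in at least 1 channel and 79 in both. Called were 4 values as higher and 4 as lower in transfected cells. The miR-99a-3p array of PC3 held 2 of the higher and 2 of the lower calls, against 4.11% and 7.84% of all detected probes on that array. In FaDu with miR-99a-3p, 1 probe was higher and 2 were lower, against 7.8% and 10.7%. In PC3 with miR-150-3p, 1 probe was higher and 0 lower, against 2.75% and 7.06%. No CDK inhibitor probe was called on the other 5 arrays. There the shares of all detected probes called higher and lower were 0.921% and 3.74% in PC3 with miR-100-3p, 0.66% and 4.75% in PC3 with miR-150-5p, and 0.816% and 5.45% in FaDu with miR-99a-5p. They were 0.804% and 3.53% in PANC-1 with si-FOXQ1-1, and 0.394% and 3.47% with si-FOXQ1-2. With 9 to 11 probes on an array, a few calls are near what such shares give, so the counts by themselves are not a result about these genes. Arrays of 1 line may share mock cells, and the values of the arrays are therefore given side by side.

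CDKN3 had the largest difference from mock of all members, in PC3 with miR-99a-3p. By A_23_P48669 the signal was 7729 in mock and 1490 in transfected cells, a log2 ratio of -2.37 ± 0.30, and by A_33_P3307903 it was 1708 and 439, a log2 ratio of -1.96 ± 0.27. Both probes of CDKN3 were lower in transfected PC3 cells with every miRNA. With miR-100-3p the log2 ratios were -0.995 ± 0.22, just short of the call, and -0.64 ± 0.21. With miR-150-5p they were -0.58 ± 0.21 and -0.45 ± 0.21, and with miR-150-3p -0.26 ± 0.21 and -0.40 ± 0.21. The PC3 mock levels of CDKN3 themselves ranged from 4.80 to 5.24 and from 2.63 to 3.26 by the probes. Both were highest on the miR-150-5p array, so the ratios of that array are taken against the highest PC3 mock level. FaDu cells with miR-99a-3p gave -0.66 ± 0.21 and -0.75 ± 0.22, and FaDu cells with miR-99a-5p 0.15 ± 0.20 and 0.23 ± 0.21. In PANC-1 the values ranged from -0.25 to 0.18, and with si-FOXQ1-1 the probes had opposite signs, at -0.22 and 0.18. With the average of all 4 mock PC3 channels as the reference, the miR-99a-3p values were -2.29 and -2.07. The study placed CDKN3 on its list of putative miR-99a-3p targets because the database TargetScan predicts a target site in its transcript and because it was lower on this PC3 array, so the array is not independent evidence of that direction. No probe of the 11 holds a match to a seed site of miR-99a-3p, miR-99a-5p or miR-100-3p in its 60 bases, and the rest of the transcripts was not searched.

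CDKN1C had its only call on the same PC3 array. The mock signal was 5295 and the transfected signal 15361, a log2 ratio of 1.54 ± 0.25. On the other PC3 arrays the CDKN1C ratio was -0.07 with miR-100-3p, 0.26 with miR-150-3p and 0.55 with miR-150-5p. In FaDu it was 0.27 with miR-99a-3p and 0.17 with miR-99a-5p, and in PANC-1 0.52 with si-FOXQ1-1 and -0.29 with si-FOXQ1-2. The siRNAs against FOXQ1 thus gave CDKN1C ratios of opposite sign, each larger than its spot error of 0.21.

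CDKN2B was higher in one line and lower in the other with miR-99a-3p. In PC3 the signal was 235 in mock and 621 in transfected cells, a log2 ratio of 1.40 ± 0.24. In FaDu the mock signal was 129, and the transfected signal of 45.5 was not well above background, so that CDKN2B was at least 2.78-fold lower. Set against the brightest Cy5 signal that was not above background on that array, the bound is 1.85-fold, and with normexp and loess in limma the log2 ratio is -0.58, which is not called. On the other arrays where CDKN2B was detected its log2 ratio lay between -0.10 and 0.28. In PANC-1 it was above background in neither channel with either siRNA, and no ratio can be given.

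CDKN2A, which shares the chromosome 9 region, had ratios in the same directions but was called on no array. In PC3 with miR-99a-3p its probes gave 0.57 ± 0.21 (24363 in mock, 36210 in transfected cells) and 0.58 ± 0.21 (5689 and 8487), differing by less than their combined spot error. In FaDu with miR-99a-3p they gave -0.37 ± 0.21 (9081 and 7012) and -0.46 ± 0.27 (132 and 95.5), the latter at -0.13 with normexp and loess. In the scanner ratios with miR-99a-3p the probes were thus near-equal within each line although they placed the mock lines so differently. In FaDu with miR-99a-5p they gave 0.20 ± 0.20 and -0.28 ± 0.30, a difference of 0.48 against a combined spot error of 0.36. With the other 3 miRNAs the PC3 ratios of both probes lay between -0.25 and 0.20. In PANC-1, A_23_P43490 gave 0.41 ± 0.21 and 0.23 ± 0.21 at mock signals of 284 and 299, and A_33_P3411628 was above background in neither channel. Of the genes beside CDKN2A, CDKN2B-AS1 had a log2 ratio of 0.80 ± 0.29, DMRTA1 0.70 ± 0.25, KLHL9 0.69 ± 0.21, IFNE -0.20 ± 0.22 and MTAP -0.34 ± 0.21 in PC3 with miR-99a-3p. CDKN2B-AS1 was listed in FaDu with miR-99a-3p at a transfected signal of 82.5, above background, and a mock signal that was not.

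CDKN2C was higher with miR-99a-3p in both lines. In FaDu, the line with the lowest mock level of CDKN2C, the signal was 347 in mock and 925 in transfected cells, a log2 ratio of 1.42 ± 0.25. In PC3 it was 3495 and 5850, a log2 ratio of 0.74 ± 0.22 that was not called. In PC3 with miR-150-3p the ratio was 0.58 ± 0.21, and on the other arrays it lay between -0.35 and 0.25. CDKN2D was called on no array. Its highest ratios were 0.74 ± 0.21 in PC3 with miR-150-3p and 0.73 ± 0.21 in FaDu with miR-99a-3p, followed by 0.49 ± 0.21 in FaDu with miR-99a-5p, whereas PC3 with miR-99a-3p gave -0.12 ± 0.20.

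CDKN1A could be measured in both channels only in FaDu and PANC-1. In FaDu with miR-99a-3p the signal was 523 in mock and 247 in transfected cells, a log2 ratio of -1.08 ± 0.24, whereas miR-99a-5p gave -0.12 ± 0.21. With normexp and loess the former was -0.74 and was not called. In PANC-1 the ratios were -0.45 ± 0.25 with si-FOXQ1-1 and -0.60 ± 0.25 with si-FOXQ1-2, the latter at -0.23 with normexp and loess. In PC3 the transfected channel of CDKN1A was not well above background with any of the 4 miRNAs, and mock signals were 17.2 to 45.0, so differences of CDKN1A in PC3 were not detectable at this signal.

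CDKN1B was called once, by A_24_P81841 in PC3 with miR-150-3p, at 399 in mock and 840 in transfected cells, a log2 ratio of 1.07 ± 0.23. The other CDKN1B probe gave 0.75 ± 0.22 there, and with normexp and loess the called probe was at 0.90, below the threshold, as it was at 0.93 with the average of the PC3 mock channels as the reference. With miR-150-5p the probes gave 0.61 ± 0.21 and 0.66 ± 0.21, and with miR-99a-3p 0.32 ± 0.21 and 0.67 ± 0.22. With miR-100-3p they gave -0.09 ± 0.21 and 0.24 ± 0.21. In FaDu with miR-99a-3p the CDKN1B probes went opposite ways, with -0.60 ± 0.21 by A_23_P204696 (1003 and 663) and 0.23 ± 0.21 by A_24_P81841 (1161 and 1358). Their difference of -0.82 exceeded the combined spot error of 0.30, so no direction is given for CDKN1B in FaDu with miR-99a-3p. In PANC-1 both probes lay between -0.14 and 0.08.

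**Figure D2:**
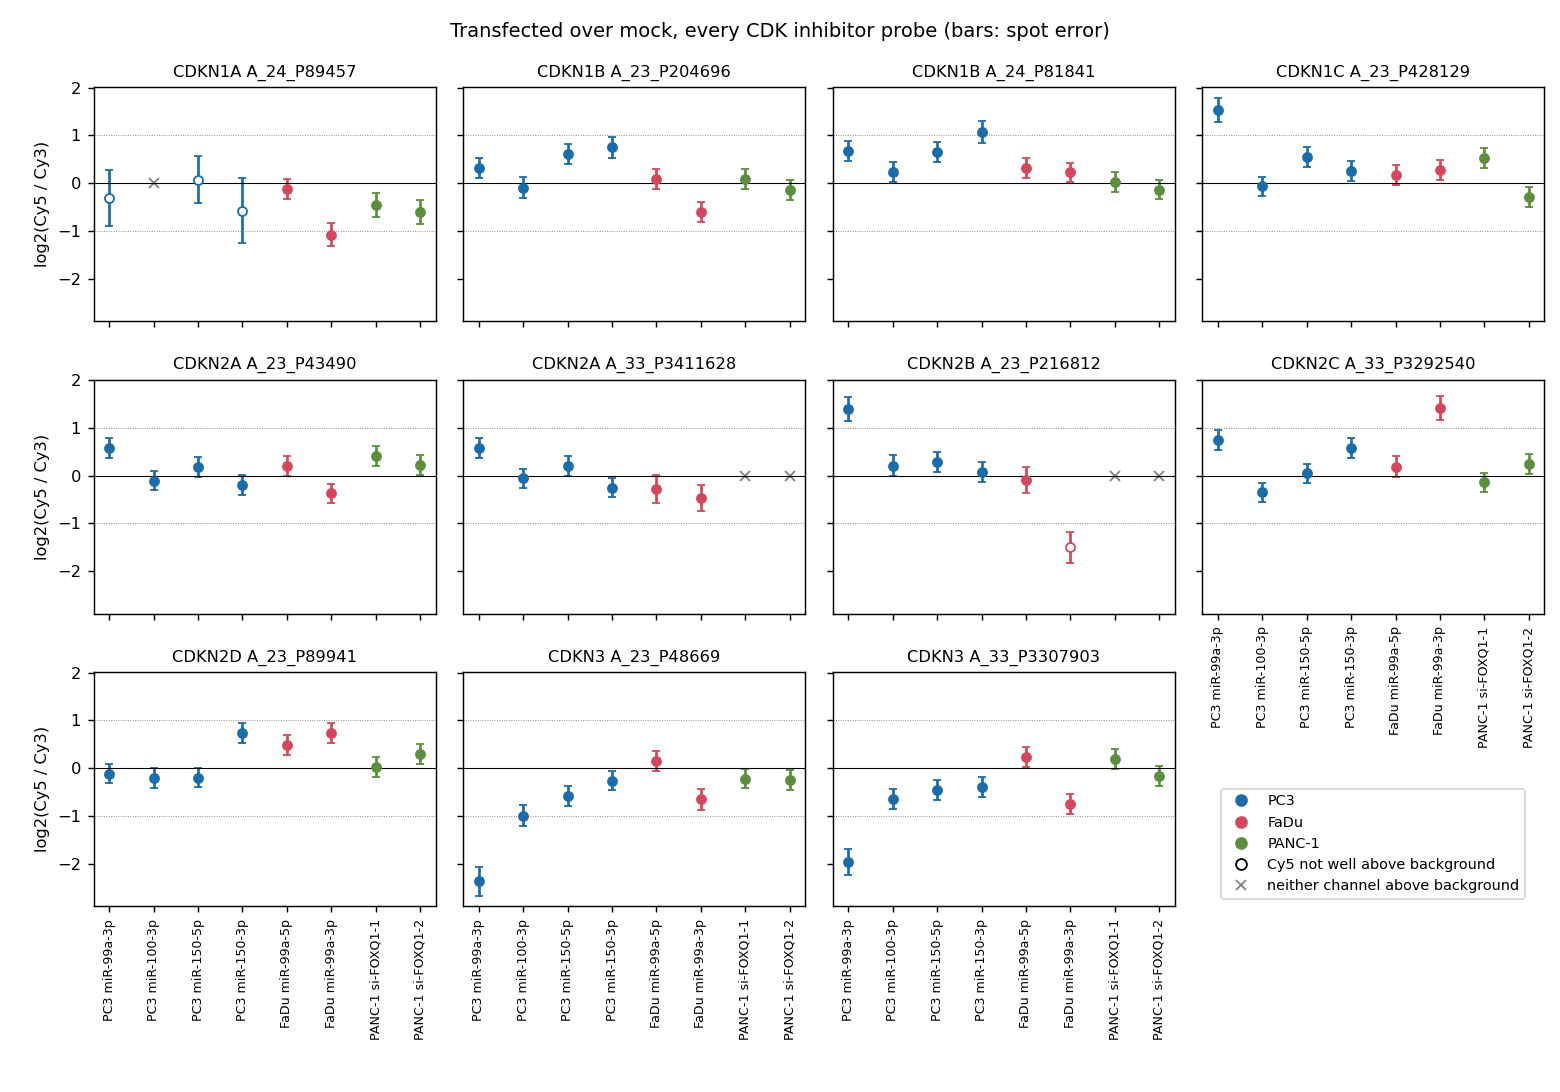
Log2 ratio of transfected over mock cells (y axis) for each of the 11 CDK inhibitor probes on the 8 arrays (x axis), with the scanner's spot error as bars and dotted lines at a 2-fold difference. Open points had a Cy5 signal not well above background, and crosses mark spots above background in neither channel. Both CDKN3 probes are lowest in PC3 with miR-99a-3p, at -2.37 and -1.96, and CDKN1C and CDKN2B are highest there, at 1.54 and 1.40.

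miR-99a-3p was the only agent transfected into more than 1 line. Under it, the CDKN2B ratio was 2.88 higher in PC3 than in FaDu on the log2 scale, with the dim FaDu channel at the lowest signal well above background. With that channel at the brightest signal not above background, the FaDu ratio was -0.89 against 1.40 in PC3, a smaller difference. With normexp and loess the CDKN2B difference was 1.70, and that of CDKN3 A_23_P48669 was -1.70. CDKN3 was lower in both lines, with a ratio in PC3 that was 1.72 and 1.21 below that in FaDu by its probes (differences of -1.72 and -1.21, combined spot errors 0.37 and 0.35). CDKN1C was 1.27 higher in PC3, and the CDKN2A probes 0.94 and 1.04 higher (0.95 and 0.63 with normexp and loess). CDKN2C and CDKN2D had the higher ratio in FaDu, with differences of -0.67 and -0.85. Signs were opposite in the lines for CDKN2B, both CDKN2A probes, CDKN2D and CDKN1B A_23_P204696. The CDKN2D ratio in PC3 (-0.12) was inside its spot error of 0.20. With normexp and loess so was the FaDu ratio of CDKN2A A_33_P3411628, at -0.13 against 0.27. The share of all probes with opposite signs is not given. Each line had 1 array, so these differences were set beside the spot error only and were not tested over cultures.

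**Figure D3:**
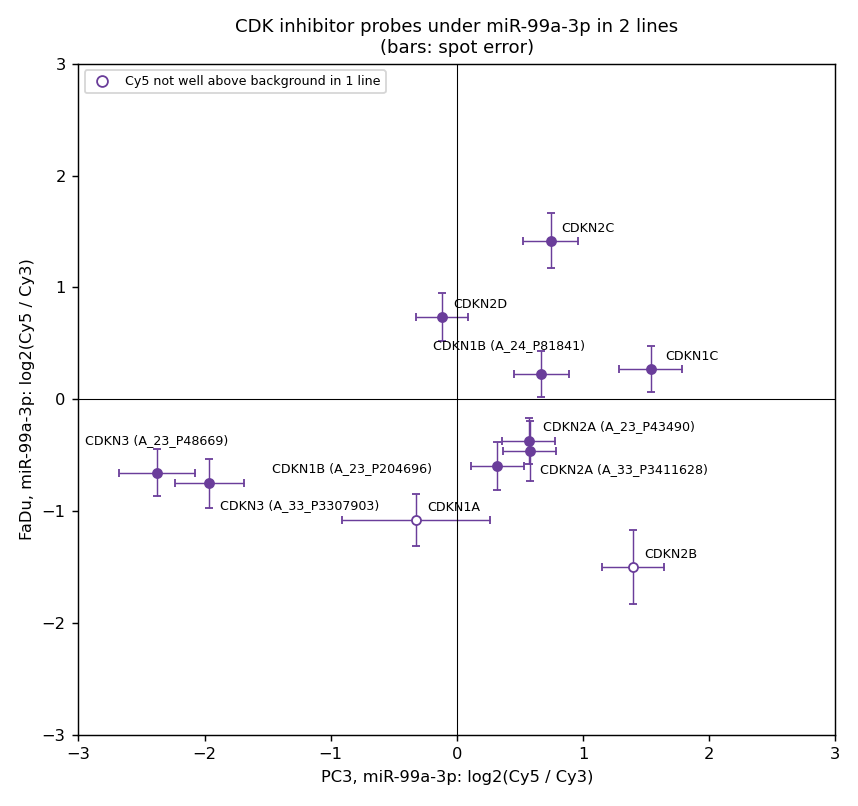
Log2 ratio with miR-99a-3p in PC3 (x axis) and in FaDu (y axis) for the 11 CDK inhibitor probes, with spot errors as bars. CDKN2B lies at the lower right (1.40 in PC3, -1.50 in FaDu, where Cy5 was not well above background), CDKN2C at the upper right, and both CDKN3 probes at the lower left.

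The CDK and cyclin genes, on which the CDK inhibitors act, had list medians of opposite sign in the 2 lines with miR-99a-3p. For the counts below, the shares of all detected probes were 4.11% higher and 7.84% lower in PC3, and 7.8% and 10.7% in FaDu. Of 12 CDK and cyclin genes, 11 were detected in PC3 with miR-99a-3p, and 0 were at least 2-fold higher and 7 at least 2-fold lower, with a median log2 ratio of -1.73 against 0.02 over all detected genes. The lowest were CDK1, the mitotic kinase, at -3.03 ± 0.35, the S-phase cyclins CCNE2 at -2.60 ± 0.32 and CCNA2 at -2.20 ± 0.30, and the mitotic cyclin CCNB1 at -1.97 ± 0.27. In FaDu with miR-99a-3p all 12 were detected, 4 were higher and 0 lower, with a median of 0.84 against -0.03 over all detected genes. CCNE2 was at 2.27 ± 0.30 there, CCND1, the cyclin partner of CDK4 and CDK6, at 1.90 ± 0.27, CCNA2 at 1.59 ± 0.25 and CCND3 at 1.07 ± 0.23. CCNE2 and CCNA2 were thus lower in PC3 and higher in FaDu, while CDKN3 was lower in both. On the same FaDu array 5 of 5 squamous markers were below 0 and 4 of them at least 2-fold lower (median -1.66, from KRT6A at -2.83 to TP63 at -0.78), and of 3 detected prostate markers HOXB13 at 2.23 and FOLH1 at 1.14 were at least 2-fold higher. In PC3 with miR-99a-3p no squamous marker was detected, and the 3 detected prostate markers lay between -0.50 and 0.30. The part of these markers in the FaDu results was not tested.

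The RB and E2F family followed the same pattern. Of 13 detected genes, 0 were higher and 4 lower in PC3, against 4.11% and 7.84% of all detected probes, with a median of -0.63. In FaDu 4 were higher and 0 lower, against 7.8% and 10.7%, with a median of 0.77. E2F2, an activating E2F, was at -3.08 ± 0.35 in PC3 and 2.39 ± 0.30 in FaDu, and E2F8, a repressive one, at -2.51 ± 0.34 in PC3, with Cy5 not well above background, and 2.33 ± 0.30 in FaDu. E2F1 was at -2.45 ± 0.31 and RBL1, the gene of the RB relative p107, at -1.20 ± 0.25 in PC3, and E2F3 at 1.38 ± 0.24 and TFDP1 at 1.28 ± 0.24 in FaDu.

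Among 8 genes that activate CDKs or control their phosphorylation, 0 were higher and 3 lower in PC3, against 4.11% and 7.84% of all detected probes. The lower genes were the phosphatases CDC25C at -3.19 ± 0.38, with Cy5 not well above background, and CDC25A at -1.37 ± 0.24, and the inhibitory kinase PKMYT1 at -2.26 ± 0.29. In FaDu CDC25A was at 2.07 ± 0.28 and CDK7, the CDK-activating kinase, at -1.44 ± 0.24, the only calls among the 8. Of 10 genes for the turnover of p21 and p27, 4 were lower in PC3 and 0 higher. They were DTL, which directs p21 to degradation, at -3.80 ± 0.41, CKS1B and SKP2, which direct p27 to degradation, at -1.53 ± 0.25 and -1.49 ± 0.27, and the replication clamp PCNA at -1.31 ± 0.24. The median of that list was -0.01. In FaDu PCNA was at 2.13 ± 0.28, the only call among them. The FaDu counts of the phosphorylation and turnover lists are near the shares of all probes there, 7.8% higher and 10.7% lower. They are not a result about these genes.

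For the next lists, the shares of all detected probes to set the counts against were again 4.11% higher and 7.84% lower in PC3 with miR-99a-3p, and 7.8% and 10.7% in FaDu. Of 20 p53 target genes, 1 was higher and 2 lower in PC3 with miR-99a-3p (median 0.16), and of 19 detected in FaDu 1 was higher and 4 lower, with a median of -0.11. TP53INP1 was at 2.17 ± 0.29, AEN at -1.87 ± 0.30 and ZMAT3 at -1.02 ± 0.54 in PC3, the last with Cy5 not well above background. In FaDu, where CDKN1A was lower, GADD45A was at -2.30 ± 0.29, SESN2 at -1.86 ± 0.27, PLK3 at -1.47 ± 0.24 and the death receptor FAS at 1.60 ± 0.25. Of 21 genes that control the transcription of CDK inhibitors, 1 was higher and 2 lower in PC3, FOXO4 at 1.05 ± 0.24, ID1 at -1.38 ± 0.24 and MYC at -1.26 ± 0.23. In FaDu 0 of 19 detected were called. The PC3 counts of both lists are near the shares of all probes and are not a result about these genes.

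On the array of PC3 with miR-150-3p, where CDKN1B was called, 2.75% of all detected probes were called higher and 7.06% lower. It had 0 higher and 2 lower of 11 detected CDK and cyclin genes, CDK2 at -1.13 ± 0.25 and CDK1 at -1.01 ± 0.22, with a median of -0.55. It had 3 lower of 13 RB and E2F genes, E2F2 at -1.46 ± 0.24, E2F8 at -1.30 ± 0.25 and E2F1 at -1.27 ± 0.24. Of 8 genes that activate CDKs or control their phosphorylation 2 were lower, PKMYT1 at -1.07 ± 0.23 and CDC25C at -1.05 ± 0.23. Of 10 genes for the turnover of p21 and p27 1 was lower, DTL at -1.19 ± 0.23. Of 20 p53 target genes 1 was lower, AEN at -1.10 ± 0.24, and 1 higher, TP53INP1 at 1.50 ± 0.25. The turnover and p53 counts are near the shares of all probes and are not a result about these genes. Over the 6 arrays without miR-99a-3p, the list medians of CDK and cyclin genes lay between -0.55 and 0.22.

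**Figure D4:**
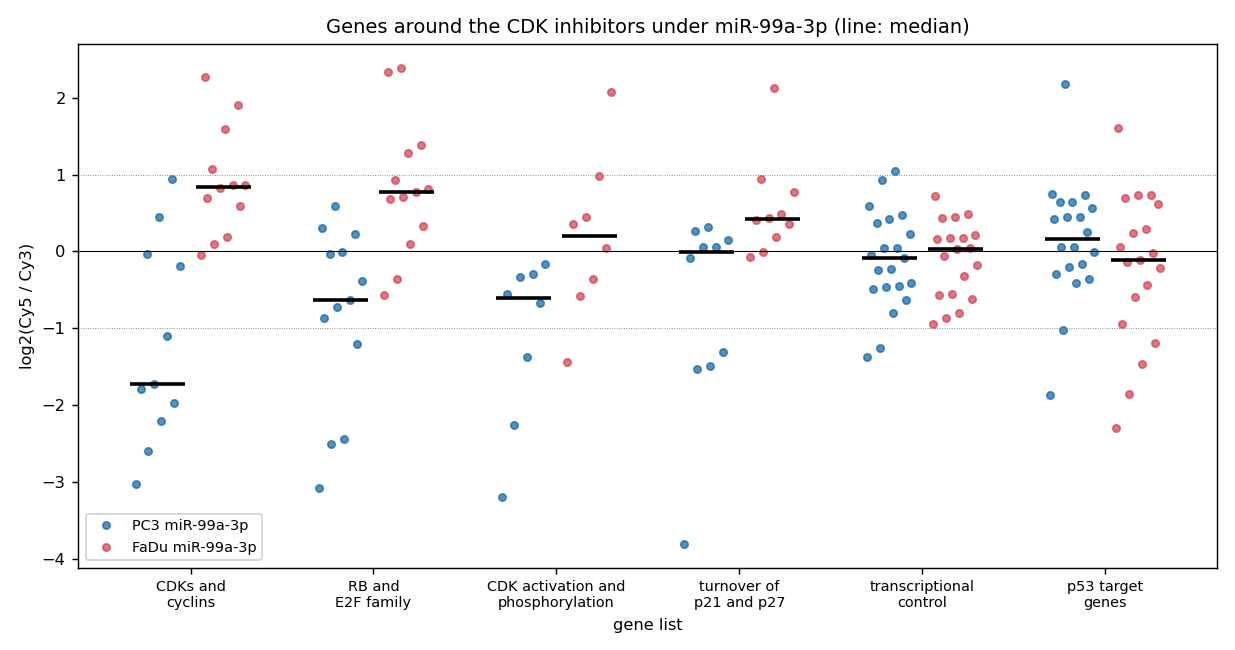
Log2 ratio with miR-99a-3p in PC3 and in FaDu (y axis) for the detected genes of 6 lists around the CDK inhibitors (x axis), 1 point for each gene, with the list median as a line and dotted lines at a 2-fold difference. The medians of CDK and cyclin genes are -1.73 in PC3 and 0.84 in FaDu.

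The promoter of CDKN3, the member with the largest difference from mock, is shown as a description of its letters. Nothing here measured binding to it, and CDKN3 was lower with miR-99a-3p in both lines while the CDK and cyclin medians had opposite signs. The 250 bases before its RefSeq start site on GRCh38.p14 (chr14:54396757-54397006, plus strand) are shown 5′ to 3′, with matches to CCAAT and TTTGAA on either strand in capitals. These are the letters of the CCAAT box and of a cell cycle homology region, elements known from promoters of mitotic genes.
CDKN3 promoter: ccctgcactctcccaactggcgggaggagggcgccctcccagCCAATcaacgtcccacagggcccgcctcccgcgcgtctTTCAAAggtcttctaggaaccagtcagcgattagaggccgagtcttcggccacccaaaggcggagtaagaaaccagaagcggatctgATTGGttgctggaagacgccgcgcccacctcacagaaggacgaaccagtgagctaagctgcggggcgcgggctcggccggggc
CCAAT matched 208 bases before the start on the plus strand and 83 bases before it on the minus strand, and TTTGAA 170 bases before it on the minus strand. Over windows of 300 bases around all 35116 RefSeq starts (250 before and 50 after), 34.6% held CCAAT and 15.2% TTTGAA on either strand. The 7 CDK inhibitor genes with an entry had 10 such windows, of which 4 held CCAAT and 1 held TTTGAA. These counts are near the shares of all windows and are not a result about these genes. By gene, CCAAT was held by CDKN1B, CDKN2C, CDKN2D and CDKN3, and TTTGAA by CDKN3 alone. The core letters of an Sp1 site, GGGCGG, were held by 7 of the 10 windows (6 of the 7 genes) and by 45.0% of all windows. A match of letters is not a measured binding site.

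The members differed from each other in their pattern over the 8 arrays. For the 6 members well above background in both channels on all 8 arrays, with the brightest probe of each gene, the pairwise Pearson correlation of log2 ratios ranged from -0.75 between CDKN1C and CDKN3 to 0.64 between CDKN2C and CDKN2D. These correlations describe 8 arrays of 3 lines in which a few arrays carry most of the range, and the arrays of a line may share mock cells. By the same measure, the nearest genes named below were picked as the highest among 13243 genes over only 8 arrays. Such picking by itself gives high values, so they are a description and were not tested. The genes nearest to CDKN3 were TMEM38B (r = 0.98) and RAD51C (0.98). Nearest to CDKN1C were KRTAP9-1 (0.97), MUT (0.96) and ALG2 (0.94), and nearest to CDKN2C were BAI2 (0.99), ELMOD2 (0.97) and DSCR3 (0.97). For CDKN1B they were lnc-TOP1MT-2 (0.97), LOC100507316 (0.96) and NBR1 (0.96). For CDKN2A they were the unnamed probe A_33_P3310751 (0.98), AGPS (0.96) and lnc-GPR83-2 (0.94), and for CDKN2D VSIG10L (0.96), QSOX1 (0.95) and PSME2 (0.93).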

How the data were processed

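RNA of transfected and mock cells was hybridised to 8 Agilent 2-colour arrays. Scans were read by the authors with Agilent's Feature Extraction software, version 10.7.3.1 per the file headers, which subtracted background and corrected dye bias in each array by itself to give the deposited intensities. The deposited log10 ratios are Cy5 over Cy3, and the deposited error of each ratio is a score from the same software. The value table of the series was identical to these ratios (largest difference 0). The probes are annotated on hg19.

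From these files, log10 ratios were converted to log2 in Python 3.11.15 with pandas 2.3.3 and numpy 2.4.6. Control spots and spots with an outlier flag (81 to 178 per array) were left out, and between 24987 and 27406 probes per array were detected. A dim transfected channel was replaced by the lowest signal well above background for a bound. Mock channels were scaled to each array's 75th percentile. Lists used the brightest probe of a gene, and named genes were all members, FOXQ1, markers, at most 4 called genes per list on arrays with a called member, and the 3 nearest genes, of which 1 is not reported here. The members, lists and alternatives were chosen with earlier results of these data known. Alternatives were normexp (offset 50) with loess, tested on simulated data, alone or followed by Aquantile, in limma 3.58.1 (R 4.3.3). Others were the series values, other filters, thresholds and probe rules, centring, and the mean of the PC3 mock channels as reference. Precision is limited by the number of arrays.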

Additional observations from a re-analysis of the deposited data

Results flagged for a closer look

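In mock PC3 cells, the only group of at least 4 channels, no CDK inhibitor probe had a channel that stood apart from the rest in 11 checks. With miR-99a-3p, every array of PC3 and every array of FaDu (1 each) had opposite signs for 4 probes whose ratios were larger than their spot error in both lines. For CDKN2B the listed ratios differ by 2.90, but the transfected channel of FaDu was not well above background. With that channel at the lowest signal well above background the difference was 2.88, and with normexp and loess it was 1.70. With the channel at the brightest signal not above background, the FaDu ratio of CDKN2B was -0.89 against 1.40 in PC3. The log2 ratio in PC3 minus that in FaDu was 1.04 for CDKN2A A_33_P3411628, 0.94 for CDKN2A A_23_P43490 and 0.92 for CDKN1B A_23_P204696. With normexp and loess the FaDu ratio of CDKN2A A_33_P3411628 was -0.13, inside its spot error of 0.27. These differences were not tested, since each line had 1 array, and the second CDKN1B probe had the same sign in both lines. The share of all probes with opposite signs is not given, so the count of 4 is not a result about these genes.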

How the results depend on the processing

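The counts of probes called higher and lower in transfected cells, 4 and 4, were 3 and 2 with normexp and loess, where up to 3.20% and 3.13% of all detected probes of an array were called, and 12 and 12 at a log2 threshold of 0.58, where up to 17.4% and 21.9% were. Without the 2 miR-99a-3p arrays, an alternative chosen after seeing the data, they were 1 and 0. There up to 2.75% and 7.06% of all detected probes of an array were called, against up to 7.80% and 10.7% as reported. Centring on the array median gave 4 and 5 (up to 7.78% and 10.7%), and a filter on both channels 4 and 3 (up to 7.32% and 6.09%). The series values and kept outlier spots gave 4 and 4 (each up to 7.80% and 10.7%). Without a filter on dim probes the counts were also 4 and 4 (up to 6.46% and 7.29% of all probes). The count of mock differences between lines was 20 of 33, where 35.1% to 43.6% of all tested probes were called. It was 20 with Aquantile (18.5% to 25.3% of all probes called), 26 without scaling (37.9% to 42.5%) and 29 at a difference of 0.58 (53.4% to 62.5%). With the percentile over probes above background in all mock channels, chosen after seeing the data, it was 21 (34.8% to 43.6%). For single ratios 4 alternatives could change nothing. Under the other 6, 23 of 257 values moved by more than their spot error, 9 of them with the dimmest probe of a gene and 6 with normexp and loess. CDKN1B in FaDu with miR-99a-3p changed sign, from 0.23 to -0.60, with its dimmer probe. With normexp and loess CDKN1A in FaDu with miR-99a-3p was -0.74, CDKN2B -0.58 there and 1.12 in PC3, CDKN2C 1.12 and CDKN2A A_33_P3411628 -0.13 in FaDu, and CDKN1A with si-FOXQ1-2 -0.23. The cause was not tested. No paired analysis was possible because there is only 1 array for any condition. Ratios of spots dim in 1 channel depend on the background, which bears on CDKN1A in PC3 and CDKN2B in FaDu.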
